A study of Ovis aries with 2 samples.

Results

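The miR-29 family was followed in extracellular vesicles from the uterine luminal fluid (ULF) of day 14 ewes. Its members were taken by the precursor name in the deposited table of mature miRNAs, and every row named mir-29a, mir-29b or mir-29c was kept, whatever its copy number. This gave 3 of the 81 mature miRNAs listed for the vesicles, miR-29a, miR-29b and miR-29c, from 4 precursors, and all 3 were listed for pregnant as well as cyclic ewes. No further row of the table carried a name of the miR-29 family.

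Vesicles were precipitated from ULF of Rambouillet ewes on day 14, either pregnant or cyclic, that is, passing through an estrous cycle without a pregnancy. RNA of 4 ewes was pooled for each condition and sequenced as 1 library, so that no value below has a replicate and a ratio sets a pair of pools side by side without saying how ewes differ among themselves. The 95% intervals hold counting error alone. As no molecular identifiers were used, copies made by PCR cannot be told from separate molecules.

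The miR-29 miRNAs are known, mostly from work in human and mouse cells, as repressors of the extracellular matrix. They bind messenger RNAs of collagens, elastin and fibrillin through their seed, the short stretch near the 5′ end that pairs with the target, and a fall in miR-29 goes with fibrosis in several organs. They also target the DNA methyltransferases DNMT3A and DNMT3B and, for miR-29b, the survival factor MCL1. In the uterus the matrix is remodelled in every cycle and before implantation. No target messenger RNA was measured in these libraries.

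The sequences against which the reads were counted are shown because the members differ from each other by only a few bases, and the counts of each member depend on them. They are the cattle mature miRNAs of miRBase release 19 as the deposited table lists them, 5′ to 3′ and with T for U, and the capitals mark the 7 bases AGCACCA that pair with targets.
miR-29a: ctAGCACCAtctgaaatcggtta
miR-29b: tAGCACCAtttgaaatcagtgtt
miR-29c: tAGCACCAtttgaaatcggtta
The 7 bases stood at positions 2 to 8 of miR-29b and miR-29c, the usual place of a seed. In the miR-29a entry they stood at positions 3 to 9, because this entry begins with a further C. No other of the 81 listed sequences held AGCACCA on the listed strand, so that the motif was present in 3.70% of the entries. When positions are counted from the T before the motif, miR-29a and miR-29c differed by the single substitution C10T and were identical at 21 of 22 bases. From miR-29a to miR-29b there were 4 substitutions, C10T, G18A, T21G and A22T. From miR-29b to miR-29c there were 3, A18G, G21T and T22A, all in the 3′ part. miR-29b alone among the 81 entries ended in the 6 bases AGTGTT, which in human cells are known to direct miR-29b to the nucleus.

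miR-29a had the most counts of the members in both libraries, followed by miR-29b and miR-29c. Whether the members were captured and matched equally well was not tested, so this order is one of counts. miR-29a had 47 counts in vesicles of pregnant and 167 in those of cyclic ewes. These were 1.67% (95% interval 1.23 to 2.22%) and 2.11% (1.80 to 2.45%) of the mature miRNA counts, which added up to 2809 and 7921. By counts miR-29a stood at rank 22 of the 54 miRNAs listed for pregnant ewes. For cyclic ewes it stood at rank 15 of the 80 listed, tied with 1 other. Both are places in the upper part of the list.
miR-29b had 25 counts in the pregnant library, 0.890% (0.577 to 1.31%) of the mature miRNA counts, and 87 in the cyclic library, 1.10% (0.881 to 1.35%). It ranked 36 and 29. miR-29c had 14 and 44 counts, with shares of 0.498% (0.273 to 0.835%) and 0.555% (0.404 to 0.745%). It ranked 43, tied with 4 others, and 41, tied with 1 other. All 3 members therefore had a lower share in the pregnant library, and for each of them the intervals of the libraries overlapped.
The 3 members together had 86 counts in vesicles from pregnant ewes, 3.06% (2.46 to 3.77%), and 298 in vesicles from cyclic ewes, 3.76% (3.35 to 4.21%). When miRNAs were grouped by the 7 bases at positions 2 to 8, with miR-29a read from its T, the family held rank 11 of 35 groups for pregnant and rank 10 of 48 for cyclic ewes. With positions 2 to 8 taken as listed, miR-29a fell out of the group, which then held 39 and 131 counts and ranked 20 and 18.

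**Figure D1:**
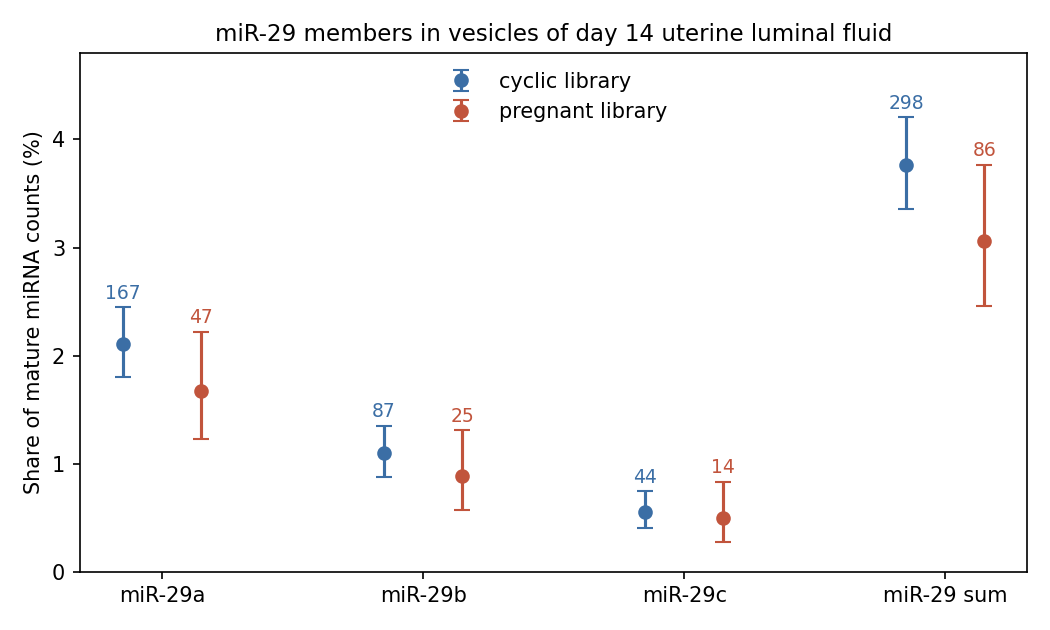
Share of the mature miRNA counts (vertical axis, %) of miR-29a, miR-29b, miR-29c and their sum in the cyclic (blue) and the pregnant (red) library. Points are the 1 pooled library of each condition, bars are exact 95% intervals for counting error, and the numbers above them are read counts. The order of the members was the same in both libraries, and the bars of the libraries overlapped for each member.

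The order of the members by counts exceeded counting error in the cyclic library. miR-29a had 1.92 times (95% interval 1.47 to 2.52) the counts of miR-29b, and miR-29b 1.98 times (1.36 to 2.91) those of miR-29c. In the pregnant library miR-29a had 1.88 times (1.13 to 3.19) the counts of miR-29b, whereas the step from miR-29b to miR-29c of 1.79 times (0.893 to 3.72) did not exceed counting error. The make-up of the family was close in the libraries. miR-29a took 54.7% (43.6 to 65.4%) of the family's counts for pregnant ewes against 56.0% (50.2 to 61.8%) for cyclic ewes, miR-29b 29.1% (19.8 to 39.9%) and 29.2% (24.1 to 34.7%), and miR-29c 16.3% (9.20 to 25.8%) and 14.8% (10.9 to 19.3%).
A ratio of members does not depend on how the libraries are scaled. The exact odds ratio, pregnant over cyclic, was 0.980 (0.548 to 1.78) for miR-29a against miR-29b and 0.904 (0.404 to 2.08) for miR-29b against miR-29c. For miR-29a against miR-29c it was 0.885 (0.430 to 1.90). No shift within the family was therefore detectable at this depth, but the intervals reached down to 0.404 and up to 2.08.

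No member met the criteria for a difference between pregnant and cyclic ewes, which were a 95% interval of the ratio that excludes 1 and a change of at least 2-fold. Over all 81 miRNAs 6.17% were called higher and 2.47% lower for pregnant ewes. With each count divided by the total mature miRNA counts, the ratio of pregnant to cyclic was 0.794 (0.562 to 1.10) for miR-29a, 0.810 (0.497 to 1.28) for miR-29b and 0.897 (0.454 to 1.67) for miR-29c. For the summed counts it was 0.814 (0.633 to 1.04). The intervals of all 3 members and of the sum thus included 1, and that of the sum lay within 2-fold.
The 3 ratios were all below 1, as were those of 21 of the 53 miRNAs listed in both libraries (39.6%). The median log2 ratio of the members was -0.30, against 0.22 over these 53 miRNAs. Of the 53, 8 had a lower ratio than miR-29a, 10 a lower ratio than miR-29b and 15 a lower ratio than miR-29c.

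The depth of the libraries limited what could be called. At its 167 cyclic counts, miR-29a would have been called lower with at most 29 counts in the pregnant library and higher with at least 119, against 59.2 counts at an equal share and 47 counted. For miR-29b these limits were 15 and 62 counts, with 30.9 at an equal share and 25 counted. miR-29c would have needed at most 6 counts to be called lower. Since the table lists a miRNA only from 10 copies upward, miR-29c could not be called lower with this scaling by total mature miRNA counts. Even at 9 copies, the most that an unlisted miRNA can have, its ratio would be 0.577 with an upper limit of 1.20.

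The ratios depended on the scaling of the libraries. The pregnant library held 119605 reads, of which 3752 matched a cattle miRNA, and the cyclic library 94735, of which 10244 matched. Relative to all reads, miR-29a had 393.0 counts per 1000000 reads in pregnant and 1763 in cyclic vesicles, miR-29b 209.0 and 918 and miR-29c 117 and 465. On this scale all 3 members were lower in the pregnant library, by 4.49-fold for miR-29a (ratio 0.223, 0.158 to 0.310), 4.39-fold for miR-29b (0.228, 0.140 to 0.359) and 3.97-fold for miR-29c (0.252, 0.128 to 0.469). With it 71.6% of all miRNAs were called lower and 0.0% higher, since this scaling moves every log2 ratio by -1.83. A share of 3 in 3 members is to be read against that background. The 81 miRNAs include those listed in 1 library only, whose ratio rests on the bound of 9 copies. All 3 members were among the 53 listed in both, for which the share called was not computed. With all reads the median log2 ratio of these 53 was -1.61, against -2.13 for the members.
The TMM factors of edgeR and the size factors of DESeq2, which set the typical miRNA near no change, moved every log2 ratio by -0.16 and -0.22. The summed counts then had a ratio of 0.731 (0.568 to 0.932) and 0.696 (0.541 to 0.888), with intervals below 1, and miR-29a had 0.712 (0.504 to 0.990) and 0.679 (0.480 to 0.944). Among all 81 miRNAs the interval lay below 1 for 12.3% with TMM and 14.8% with size factors, against 7.41% with total mature miRNA counts. The intervals of miR-29b and miR-29c included 1 with both, and no member reached 2-fold with either, where 3.7% of all miRNAs were called lower in each case. The calls over all miRNAs were 5 higher and 2 lower with total counts, 5 and 3 with TMM and 4 and 3 with size factors.

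**Figure D2:**
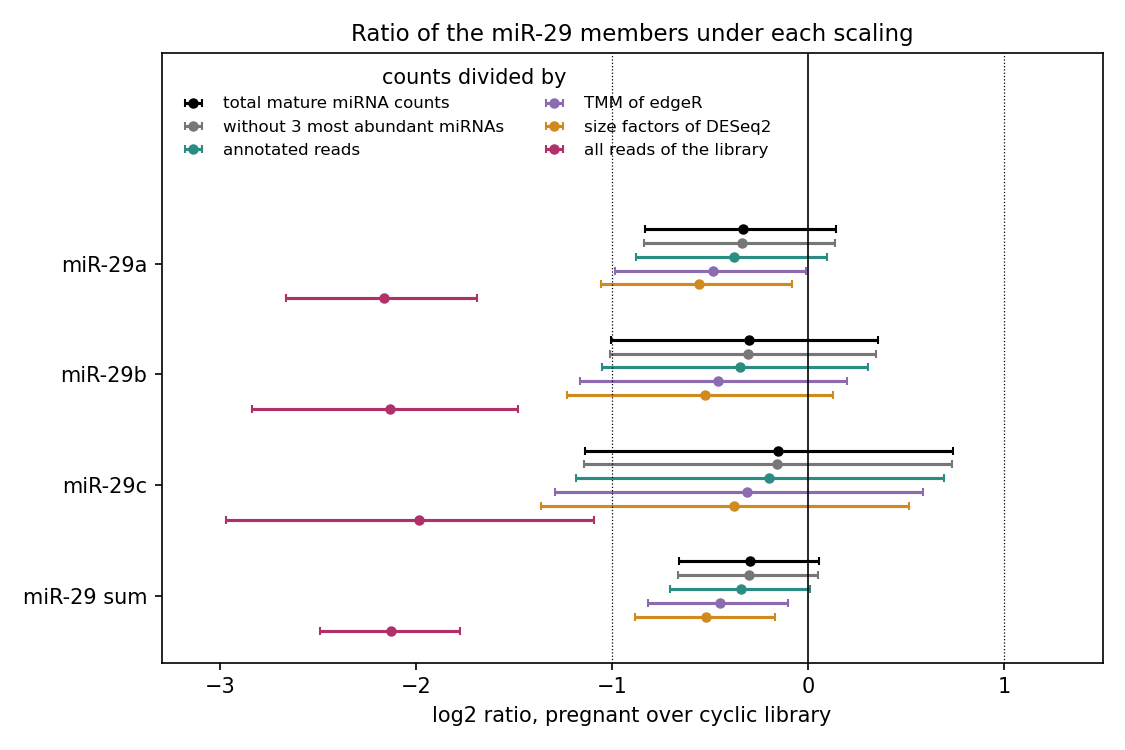
Log2 ratio of pregnant to cyclic (horizontal axis) for miR-29a, miR-29b, miR-29c and their sum, with a colour for each scaling of the counts. Points are ratios of the 1 pooled library of each condition, bars are exact 95% intervals for counting error, and dotted lines mark 2-fold. All points lay left of 0, but those from all reads of the library (log2 ratio -2.17 for miR-29a) stood apart from the others (-0.56 to -0.33 for miR-29a).

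**Figure D3:**
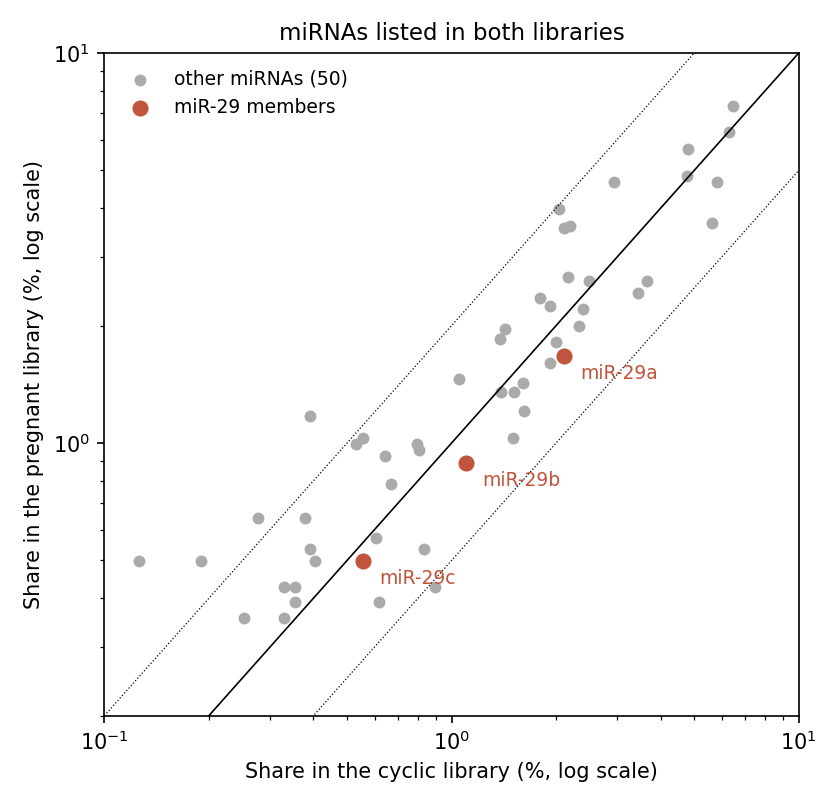
Share of mature miRNA counts in the cyclic (horizontal) and the pregnant library (vertical), both in % on log axes, for the 53 miRNAs listed in both. Red points are the miR-29 members and grey points the other 50, the solid line marks equal shares and dotted lines 2-fold. miR-29a (2.11 and 1.67%), miR-29b (1.10 and 0.890%) and miR-29c (0.555 and 0.498%) lay just under the solid line.

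The members differed in how well their reads matched the listed sequence. An exact match is a read equal to the listed mature miRNA, and the other reads of a member are variants in length or with mismatches. None of the 47 pregnant and none of the 167 cyclic counts of miR-29a were exact matches, and the exact 95% intervals of these shares reached up to 7.55% and 2.19%. Likewise 0 of 25 and 0 of 87 counts of miR-29b were exact, with intervals up to 13.7% and 4.15%. miR-29c was the opposite, with 10 exact matches of 14 counts in the pregnant library, 71.4% (41.9 to 91.6%), and 34 of 44 in the cyclic library, 77.3% (62.2 to 88.5%). Among all other miRNAs 10.9% (9.79 to 12.2%) of the counts were exact for pregnant and 9.73% (9.08 to 10.4%) for cyclic ewes, so that miR-29c lay far above this pooled share.
Entries with no exact match were common, and miR-29a and miR-29b were among the 41 of 54 listed for pregnant ewes (75.9%) and the 57 of 80 for cyclic ewes (71.3%). By the share of exact matches miR-29c held rank 4 for pregnant and rank 2 for cyclic ewes. The miR-29a entry carries the further C at its 5′ end, whereas the miR-29b entry begins with T like that of miR-29c. The miR-29a and miR-29b entries are 23 bases long and that of miR-29c 22. Among entries listed for cyclic ewes, 5 of the 23 with 23 or more bases and 18 of the 57 shorter ones had exact matches. The reads themselves were not analysed here, and whether the listed ends or sheep sequence differences led to these shares was not tested.

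The members also differed in how many of their counts could be given to a single precursor. All counts of miR-29a and of miR-29c, 47 and 14 for pregnant and 167 and 44 for cyclic ewes, fell to 1 precursor only. For miR-29b this held for 0 of 25 pregnant and 1 of 87 cyclic counts, 1.15% (0.0291 to 6.24%), as 2 precursors, mir-29b-1 and mir-29b-2, hold the same mature sequence. The counts of miR-29b are thus a sum over both genes. Other miRNAs with several precursors were alike in this, with 7.68% (5.61 to 10.2%) and 5.32% (4.25 to 6.57%) of their counts so assigned, while for other miRNAs with a single precursor it was 92.3% (91.1 to 93.4%) and 91.6% (90.9 to 92.3%).
The separation of miR-29a from miR-29c, with C10T as their single substitution, was not shared by every such pair. Among the other miRNAs of a single precursor and within 1 substitution of another listed entry, 7 of 20 had fewer than 95% of their cyclic counts assigned to it. For miR-16a and miR-16b this share was 10.8% and 25.4%, and for let-7c it was 21.8%. In 12 of the 20, among them miR-200b and miR-200c, all cyclic counts were so assigned, as in miR-29a and miR-29c. Reads with mismatches may still have been given to the wrong member of a pair, which these columns do not show.

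**Figure D4:**
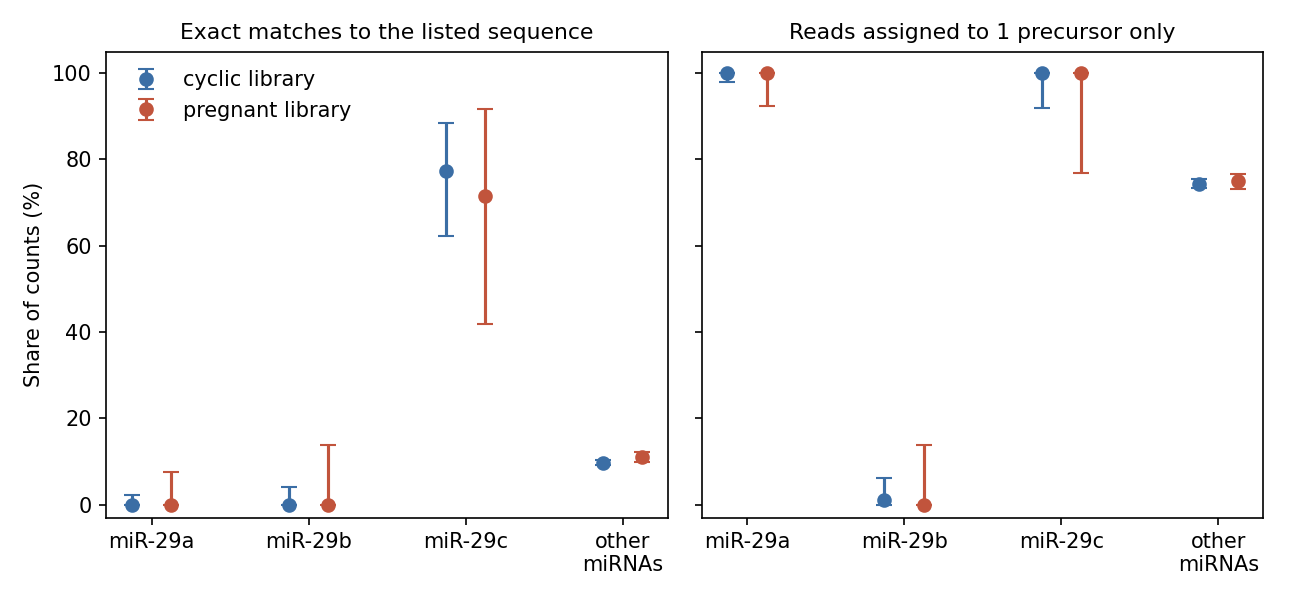
Share of counts (vertical axis, %) that matched the listed sequence exactly (left) and that were assigned to 1 precursor only (right), for each miR-29 member and for the counts of all other miRNAs, in the cyclic (blue) and the pregnant (red) library. Bars are exact 95% intervals for counting error. miR-29c stood at 71.4 and 77.3% exact matches against 0 for miR-29a and miR-29b, and miR-29b at 0 and 1.15% single-precursor reads against 100% for miR-29a and miR-29c.

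With exact matches alone, only miR-29c could be compared, with 10 and 34 counts and a ratio of 0.741 (0.327 to 1.53) when divided by the 308 and 776 exact matches of all miRNAs. With counts of a single precursor alone, divided by their own totals of 2101 and 5882, the family had 61 pregnant and 212 cyclic counts, the latter with the 1 count of miR-29b, and a ratio of 0.806 (0.596 to 1.08). Both intervals included 1, as with all counts.

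In the RefSeq genes of sheep (ARS-UI_Ramb_v3.0), 2 of the 3 members have a gene of the same name. No gene of this name was found for miR-29c, so the list may not hold every gene of the family. MIR29B-1 and MIR29B-2 are listed on the same chromosome with 1 gene between them, CD46, which encodes a regulator of complement. MIR29A is listed with other genes on either side, and its distance from MIR29B-1 and MIR29B-2 was not examined. The deposited counts name no genome build, and no coordinates are given.

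The miRNAs with the most similar levels in these 2 libraries were found by the distance of the log2 shares of counts. For miR-29a these were miR-16a with 51 and 158 counts, let-7f with 45 and 152 and miR-16b with 56 and 185, at distances of 0.14, 0.15 and 0.29. Of their cyclic counts only 17 for miR-16a and 47 for miR-16b fell to 1 precursor only, though each has a single precursor. The levels of miR-16a and miR-16b may therefore not be separate. let-7f, which has 2 precursors, had 0 such counts. miR-29b had no neighbour as close, and the nearest were miR-27a at 0.46, miR-339a at 0.49 and miR-27b at 0.50. For miR-29c the nearest were miR-320a at 0.23, miR-103 at 0.38 and miR-378 at 0.46. Over 2 libraries such likeness is a description of level only.

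Other miRNAs with known roles in matrix and fibrosis were set beside the family. Of a list of 20, 16 were in the table and 12 were listed in both libraries. None of the 16 was called higher or lower, where 6.17% of all 81 miRNAs were called higher and 2.47% lower. The median log2 ratio of the 12 was 0.04, with 5 of 12 ratios below 1. Over all 53 miRNAs listed in both libraries the median was 0.22, with 21 ratios below 1 (39.6%). Within the list, 3 intervals lay above 1 and 3 below. miR-21, which promotes fibrosis in several organs of the mouse, had 131 and 460 counts and a ratio of 0.803 (0.656 to 0.977), near that of the miR-29 sum. miR-200b and miR-200a, which keep cells epithelial and restrain the shift to matrix-producing cells, had 0.653 (0.522 to 0.810) and 0.712 (0.543 to 0.924), whereas miR-200c had 1.59 (1.27 to 1.97). The miR-30 family, of which miR-30c represses connective tissue growth factor in the rodent heart, lay on both sides of 1, with 0.893 (0.603 to 1.30) for miR-30a and 1.86 (1.12 to 3.04) for miR-30c. miR-24, which limits fibrosis in the mouse heart, had 1.88 (1.12 to 3.10). miR-214 and miR-199a, which are typical of stromal cells, miR-143, which is typical of smooth muscle, and miR-101 were listed for cyclic ewes only, with 10 to 23 counts, and their direction could not be told. miR-133a, miR-133b, miR-192 and miR-194 were not in the table.

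Markers of cell types were measured in the same libraries. The 5 epithelial miRNAs of the miR-200 family with miR-141 and miR-429 made up 10.9% of the counts for pregnant and 13.0% for cyclic ewes. For pregnant ewes this is a lower bound, since miR-141 and miR-429, with 43 and 20 cyclic counts, were unlisted there and may have had up to 9 copies each, and miR-200c ran against the set with its ratio of 1.59. The liver miRNA miR-122 was not in the table. The red blood cell miRNA miR-451 had 12 and 71 counts (ratio 0.477, 0.235 to 0.885), and the myeloid miR-223 at most 9 and 56. The smooth muscle miRNAs together had 1.85% of the counts for pregnant and 1.51% for cyclic ewes. The pregnant value rests on miR-145 alone, and the interval of its ratio included 1. Of these, miR-145 had 52 and 109 counts (ratio 1.35, 0.948 to 1.89) and miR-143 at most 9 and 11. The summed share of the listed miR-200 family counts was thus lower in the pregnant library, but it is a lower bound there. No interval was computed for the ratio of this sum, and miR-200c went the other way. The shares of miR-451 and miR-223 were lower in the pregnant library as well, whereas that of smooth muscle was not. The summed share of miR-29 was lower too, but the interval of its ratio with total mature miRNA counts included 1. The epithelial set holds the miR-200 family alone, so that it does not stand for all miRNAs of epithelia. The part of these markers in the miR-29 ratios was not tested. In pooled vesicles, fewer vesicles from a cell type and less of a miRNA in each vesicle cannot be told apart.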

How the data were processed

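Small RNA of vesicles from ULF was sequenced with the Ion Torrent platform in 1 library of pregnant and 1 of cyclic ewes, with RNA of 4 ewes pooled in each. The authors kept reads of 15 to 55 bp with CLC Genomics Workbench (small RNA workflow), compared them with cattle miRNAs of miRBase release 19 with fewer than 2 mismatches, and grouped them by mature miRNA at 10 or more copies. The sources used here name no software version. The deposited values are raw counts of reads for each mature miRNA, beside columns for exact matches and for reads of 1 precursor only. The lowest listed count was 10, and 9 copies were taken as the bound for an entry of 0, in place of the floor of 3 counts that other data would need. Reads and annotated reads per library came from the authors' annotation reports.

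Counts were divided by the total mature miRNA counts of each library (2809 pregnant, 7921 cyclic). Shares have exact Clopper-Pearson intervals at 95%, ratios the exact conditional binomial interval, and pairs of members the conditional odds ratio. No test between conditions was made. The ratio script was tested on simulated counts. These were drawn at a greater depth than that of the libraries, so the test does not show how often changes are called at their depth. Alternatives were all reads, edgeR 4.0.16 TMM and DESeq2 1.42.0 size factors over the 53 miRNAs in both libraries (R 4.3.3), totals without the 3 most abundant miRNAs, minimums of 20 and 50 counts, exact or single-precursor counts (each divided by its own total), and the second deposited table, which held equal counts. Scaling by annotated reads or by totals without miR-29, the seed groups, and the comparison of entries within 1 substitution over at least 19 bases were added after the data were seen. Python 3.11.15, NumPy 2.4.6, pandas 2.3.3, SciPy 1.17.1 and matplotlib 3.10.9 were used.

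The members and lists were chosen with earlier results of these data known. Named miRNAs were the members, the 3 nearest to each by level, and the lists of matrix and fibrosis miRNAs and of cell type markers. let-7c, in the comparison of near-identical entries, was named after its values were seen. miR-15a and miR-15b, also outside these groups, were named because their entries begin with TAGCA. The second table holds 6 columns of a library outside the samples used here, and these were not used. Columns of the authors' own range, difference and fold change between libraries were not used.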

Additional observations from a re-analysis of the deposited data

How the results depend on the processing

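The ratios of miR-29a, miR-29b, miR-29c and their sum stayed below 1 under every alternative that gave a value (8, 7, 9 and 9 alternatives). Without the scaling by all reads they ranged from 0.679 to 0.794, 0.693 to 0.810, 0.741 to 0.897 and 0.696 to 0.814. The alternatives are not separate checks of the direction. The second table held equal counts, and all counts of miR-29a and miR-29c fell to 1 precursor. The scalings divide the same counts by other totals or factors. Division by all reads moved the ratios to 0.223, 0.228, 0.252 and 0.229, all called lower, so that 3 members were called lower and their median log2 ratio became -2.13. Among all miRNAs it gave 0 calls of higher and 58 of lower, in place of 5 and 2. Exact-match counts and single-precursor counts each gave 2 higher and 1 lower, an interval excluding 1 without the 2-fold criterion 11 and 6, and minimums of 20 and 50 counts left 2 and 0 higher. None of these settings but all reads called a miR-29 member. miR-29a and miR-29b could not be compared with exact matches, and miR-29b not with single-precursor counts, for lack of counts in 1 or both libraries. With single-precursor counts miR-29a took 77.0 and 78.8% of the family in the pregnant and cyclic library. No further miR-29 row was there to add. No paired analysis was possible because each condition has 1 library. With 14 to 47 pregnant counts per member, counting error limits every ratio given here.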

Other observations

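The 7 bases of the miR-29 motif differ little from those of the miR-15/16 family, whose entries also begin with TAGCA. Of the listed entries outside the miR-29 family 4 began so, miR-15a, miR-15b, miR-16a and miR-16b, and all 4 had AGCAGCA at positions 2 to 8. The miR-15/16 family restrains the cell cycle and survival. The overlap of its targets with those of miR-29 was not examined. miR-16a and miR-16b were also the miRNAs nearest in level to miR-29a beside let-7f, with 51 and 56 counts in vesicles from pregnant and 158 and 185 in vesicles from cyclic ewes. miR-15a and miR-15b had 16 and 30 counts in the cyclic library and were not listed for the pregnant library.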
